A study of Mus musculus with 16 samples.

Results

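Olfactory receptor genes were described by the histone mark H3K27me3 over their intervals and by their RNA, in cultured mouse CD4 T cells with intact or deleted Ezh2. The members were all gene intervals of the ChIP-seq count tables whose symbol begins with Olfr and a number and which held at least 1 read over the 4 ChIP libraries: 1101 of the 1106 intervals so named, and 4.94% of the 22269 intervals in the tables. The other 5 (Olfr20, Olfr116, Olfr275, Olfr577 and Olfr1396) each overlap another interval and held no read. Control cells came from Ezh2 fl/fl mice, whose Ezh2 alleles are floxed and which carry no Cre, and Ezh2-deleted cells from Ezh2 fl/fl.CD4Cre mice, in which the Cd4 promoter drives Cre in the T cell lineage. All groups therefore share the floxed alleles, and all were naive CD4 T cells sorted by flow cytometry and activated with plate-bound anti-CD3 (5 ug/ml) and soluble anti-CD28 (1 ug/ml). Th0 cultures received IL-2 (50 U, given per ml for ChIP), and iTreg cultures, which are driven toward induced regulatory T cells, received IL-2 (200 U/ml) and TGF-b1 (5 ng/ml). H3K27me3 was measured in Th0 cells of 2 control replicates (33 and 7) and 2 Ezh2-deleted replicates (10 and 9), and RNA in 3 replicates of each genotype in each culture. The ages of the mice are not given in the sources used here, and the day in the iTreg titles (5) differs from the harvest day in the protocol (4).

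Olfactory receptors are G protein-coupled receptors of the nose and form the largest gene family of the mouse. They stand in arrays on many chromosomes, most with a coding sequence in a single exon, and each olfactory sensory neuron expresses a single receptor allele while the others are held silent. In olfactory neurons that silence is known to rest on constitutive heterochromatin marked by H3K9me3 and H4K20me3. H3K27me3, which Ezh2 places as the catalytic subunit of Polycomb repressive complex 2, is instead known for CpG-rich promoters of developmental genes such as the Hox genes.

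The sequences at the starts of these genes show how they differ from such promoters. Of the 1101 members, 921 matched a window in the RefSeq table (GRCm38.p6) that runs from 250 bases before to 50 bases after the annotated gene start. In 73.1% of these windows the annotated start was an ATG, against 6.75% of windows over all genes, so the window often lies at the start codon and not at a mapped transcription start. The median window had a GC content of 35.0% and 1 CG dinucleotide, against 52.7% and 7 over the 27025 windows of all genes, and 33.9% of member windows had no CG against 5.78% of all. A few windows are shown with every CG in capitals: Olfr94, which had the highest control density and the largest loss; Olfr1535, from the chromosome 13 array with the largest cluster loss; Olfr1241, which rose; and, for contrast, the 250 bases before the start of Hoxd10.
Olfr94 (chr17:37197917-37198216, minus strand): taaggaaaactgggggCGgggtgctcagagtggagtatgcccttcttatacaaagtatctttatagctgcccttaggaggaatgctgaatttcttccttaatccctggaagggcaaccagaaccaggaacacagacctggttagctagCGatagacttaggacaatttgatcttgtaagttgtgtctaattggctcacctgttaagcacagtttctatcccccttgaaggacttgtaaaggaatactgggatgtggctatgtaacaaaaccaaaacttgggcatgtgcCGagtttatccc
Olfr1535 (chr13:21555971-21556270, minus strand): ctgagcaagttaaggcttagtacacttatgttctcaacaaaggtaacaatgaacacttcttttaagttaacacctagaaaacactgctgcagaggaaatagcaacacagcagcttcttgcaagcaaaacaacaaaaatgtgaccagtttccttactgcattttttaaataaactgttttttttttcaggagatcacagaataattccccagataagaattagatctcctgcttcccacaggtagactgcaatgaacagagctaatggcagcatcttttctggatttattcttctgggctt
Olfr1241 (chr2:89483084-89483383, minus strand): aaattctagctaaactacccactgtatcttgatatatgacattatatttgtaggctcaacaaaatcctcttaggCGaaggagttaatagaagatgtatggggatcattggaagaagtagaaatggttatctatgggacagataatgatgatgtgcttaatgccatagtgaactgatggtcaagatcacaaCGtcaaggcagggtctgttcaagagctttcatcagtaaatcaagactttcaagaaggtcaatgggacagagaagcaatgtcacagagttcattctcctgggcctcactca
Hoxd10 (chr2:74691641-74691890, plus strand): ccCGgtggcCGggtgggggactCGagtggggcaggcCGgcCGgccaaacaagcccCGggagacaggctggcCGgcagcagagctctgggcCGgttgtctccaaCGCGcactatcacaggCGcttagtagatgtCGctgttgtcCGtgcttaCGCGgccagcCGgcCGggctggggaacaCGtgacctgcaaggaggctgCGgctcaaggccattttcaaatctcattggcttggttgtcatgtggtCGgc
These stretches held 3, 0, 2 and 20 CG dinucleotides. A pair of palindromes, each of which reads the same on both strands, was also counted in the windows. TAATTA, a core of homeodomain sites, was in 18.6% of member windows and 5.31% of all windows, and CCCNNGGG, a core of early B cell factor sites, in 3.04% and 13.4%. In the windows of 294 vomeronasal receptors, with a median GC content of 36.7%, the shares were 11.9% and 7.82%. TAATTA holds only A and T, and CCCNNGGG is fixed only at C and G. The part of base composition in these shares was not tested.

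The tables gave the members thin coverage. ChIP libraries held 11124172 to 15103496 counted reads, and a member had a median of 15, 17, 21 and 17 reads in control 33, control 7, Ezh2-deleted 10 and Ezh2-deleted 9. The median member spanned 957 bases. Reads without molecular identifiers are not independent molecules, so limits set by counts cover counting error only. Ezh2 RNA, counted over the whole gene, was 148 to 169 CPM (reads of a gene scaled to a common library total, as is usual for CPM) in Ezh2-deleted and 295 to 312 CPM in control Th0 cells, and 48.7 to 123 against 166 to 251 CPM in iTreg cells. In the ChIP libraries the median H3K27me3 density of 31 Hox intervals was 6.50 and 8.02 CPM per kb of interval in the controls and 1.25 and 1.76 in the Ezh2-deleted libraries. Among ChIP libraries the X chromosome stood apart: the ratio of X-linked to autosomal median density was 0.538 and 1.39 in control 33 and 7 and 0.971 and 0.800 in Ezh2-deleted 10 and 9. The 6 X-linked members followed it, with medians of 0.776, 2.05, 1.19 and 1.18 CPM per kb in the same order. As in any bulk assay, fewer cells with a mark and less mark per cell cannot be told apart.

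As a family, olfactory receptor intervals did not separate the genotypes by their share of all counted H3K27me3 reads. Their reads summed to 2411 and 2386 CPM in control 33 and 7 and to 2237 and 2468 CPM in Ezh2-deleted 10 and 9 (2398 ± 17.5 against 2353 ± 164, mean ± SD, n = 2 each), a ratio of 0.981 with overlapping groups. Scaled by TMM, which equalises the bulk of intervals, or by DESeq2 size factors, the ratio was 0.835 or 0.859, and leaving out 1 library at a time it was 0.933 to 1.03, so its size and side of 1 rest on the scaling and the libraries. The median member had a density of 1.25 and 1.25 CPM per kb in the controls and 1.27 and 1.403 in the Ezh2-deleted libraries. These levels were close to those of 352 other intervals of 900 to 1100 bases (1.15 and 1.15, then 1.22 and 1.30) and of 330 vomeronasal receptors, the chemoreceptors of the vomeronasal organ (1.08 and 1.01, then 1.15 and 1.33). They were far from the Hox densities above and from those of 14 housekeeping intervals, which were 0.396 and 0.353 in controls and 0.823 and 0.916 without Ezh2. The 352 short intervals and the 330 vomeronasal receptors share members, because only olfactory receptor names were left out of the 352.

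**Figure D1:**
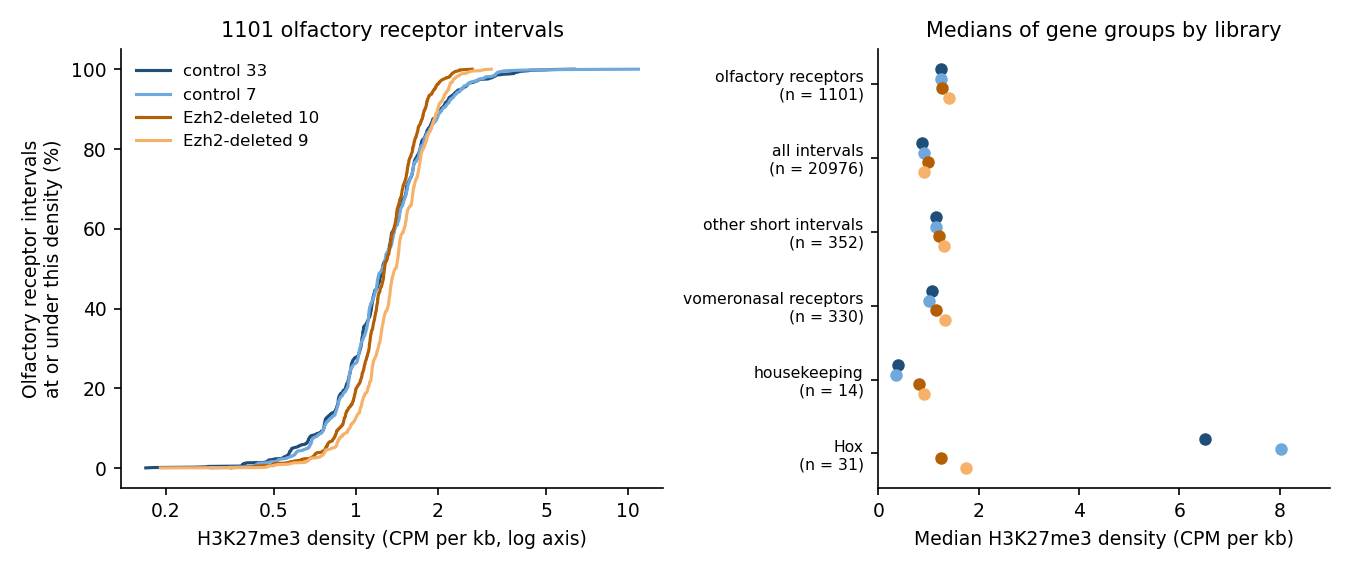
Left, the share of the 1101 olfactory receptor intervals (percent) at or under each H3K27me3 density (CPM per kb, log axis), 1 line per ChIP library. Right, the median density of 6 gene groups, 1 point per library. Olfactory receptor medians lie between 1.25 and 1.403 in all 4 libraries, while the control lines reach 6.34 and 10.9 at the top and the Ezh2-deleted lines end at 2.68 and 3.15.

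What differed between genotypes was the spread among the receptors, as it did among other intervals. The SD of density over members was 0.623 and 0.645 CPM per kb in the controls and 0.364 and 0.416 in the Ezh2-deleted libraries, so the groups did not overlap. It went from 0.829 and 1.05 to 0.385 and 0.439 in the 352 other intervals of 900 to 1100 bases. In the 330 vomeronasal receptors it went from 0.474 in both controls to 0.329 and 0.355, and over all intervals from 1.04 and 1.36 to 0.497 and 0.560. The density that 10% of members exceeded was 2.04 and 2.08 in the controls and 1.79 and 2.00 in the Ezh2-deleted libraries. Which receptor was high was shared between controls: over the 1101 members the Spearman correlation of density was 0.41 between control 33 and 7, 0.11 between Ezh2-deleted 10 and 9, and 0.01 to 0.21 between a control and an Ezh2-deleted library. Similar intervals showed the same drop, from 0.54 between controls to 0.28 between Ezh2-deleted libraries in the 330 vomeronasal receptors and from 0.47 to 0.18 in the 352 other intervals of 900 to 1100 bases. These are descriptions over intervals that share library and depth. The 110 members ranked highest in control 33 had a median of 2.20 in control 7, against 1.06 for the 110 lowest. The same 2 sets read 1.37 and 1.21 in Ezh2-deleted 10, and 1.41 and 1.44 in Ezh2-deleted 9. Ranked in control 7 and read in control 33, the sets had 2.18 and 1.05. The family's rank among all intervals moved: the median member lay at percentile 69.0 of all intervals with a read by control mean density and at 91.1 by Ezh2-deleted mean density, and 74 members (6.72%) were among the top 10% of intervals in controls against 592 (53.8%) in Ezh2-deleted cells. The density that bounds this top 10% itself fell from 2.22 to 1.32 CPM per kb, while the members' medians were 1.25 in the controls and 1.27 and 1.403 in Ezh2-deleted cells, so the shift in rank followed the other intervals. Without Ezh2 that bound also lay near the medians of the 352 other short intervals (1.22 and 1.30) and of the vomeronasal receptors (1.15 and 1.33). Their shares in the top 10% are not given here, so the shift is not shown to be particular to olfactory receptors.

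**Figure D2:**
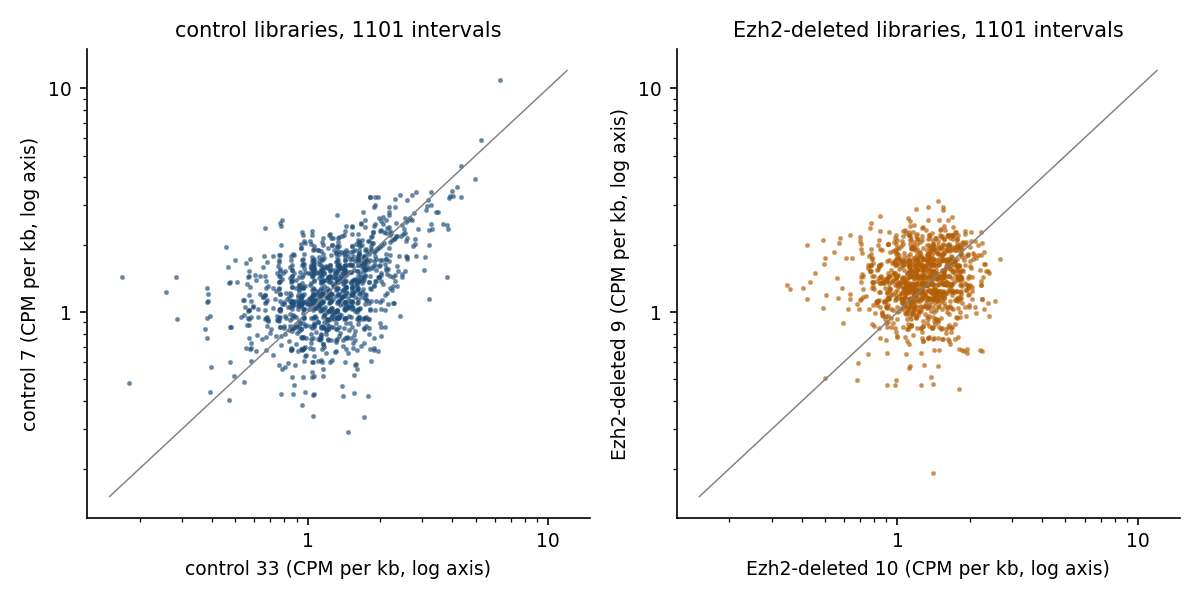
H3K27me3 density (CPM per kb, log axes) of each of the 1101 olfactory receptor intervals in the 2 control libraries (left) and the 2 Ezh2-deleted libraries (right), with the line of equality. The control points stretch along the line up to 10.9, and the Ezh2-deleted points form a round cloud with a Spearman correlation of 0.11.

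Single receptors changed in both directions, more often down than up. Of the 1096 members with enough reads to test, 54 fell and 16 rose in Ezh2-deleted Th0 cells (6.39% called; edgeR quasi-likelihood test, Benjamini-Hochberg adjusted p under 0.05), while over all 20376 intervals 52.9% were called, 20.6% lower and 32.2% higher. The falls were 4.93% and the rises 1.46% of members tested. Called log2 changes ran from -2.15 to -0.68 and from 0.80 to 1.87. The members' median log2 change was 0.11 (quartiles -0.24 and 0.40) beside 0.21 over all intervals (quartiles -0.42 and 0.83). Calls were few in the short intervals compared: of members with 900 to 1100 bases 4.92% were called (3.35% lower, 1.56% higher). Of the other intervals of that length 8.9% were called (5.52% lower, 3.37% higher). Of vomeronasal receptors 4.64% were called (2.48% lower, 2.17% higher), and of the 31 Hox intervals 100% were, all lower. The split depended on scaling. TMM gave 93 lower and 5 higher members and moved the median of all intervals from 0.21 to -0.02; over all intervals it called 52.3% (28% lower, 24.3% higher). DESeq2 gave 33 lower and 0 higher members (46 at an unadjusted p under 0.05), which is 7.24% of members with an adjusted p. Over all intervals it called 45.8% (25.7% lower, 20.1% higher). It gives no adjusted p to intervals with few reads (18942 of 20976 had one), so many low-count members could not be called. All 54 falls of the library-size fit were among the 93, and 32 of them among the 33. Without Ezh2-deleted 10, or without Ezh2-deleted 9, edgeR made no call among members or among any other interval, with 62 and 42 members at an unadjusted p under 0.05, and each of the 54 and 16 kept its sign.

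The strongest falls were in receptors of the extended MHC on chromosome 17 and of chromosomes 13, 11, 15, 6 and 4. Olfr94 (chromosome 17, 37196708 to 37198011 in mm10) lies 0.613 kb from Ubd, an interferon-induced ubiquitin-like gene, and had 6.34 and 10.9 CPM per kb in the controls and 1.73 and 2.20 in Ezh2-deleted cells. Its log2 change was -2.15 (SE 0.34, adjusted p = 0.000671). Its neighbour Olfr95 (37210894 to 37211867) had 5.26 and 5.86, then 1.36 and 1.94 (log2 change -1.77, SE 0.33, adjusted p = 0.00192). In both genes each control library was above each Ezh2-deleted library. On chromosome 15, Olfr288 (98186013 to 98195542), a longer interval with 294 and 328 control reads, had 2.77 in both controls and 1.19 and 1.18 in Ezh2-deleted cells (log2 change -1.23, SE 0.23, adjusted p = 0.00173). On chromosome 13, Olfr1366 (21536974 to 21542775) had 3.92 and 3.30, then 0.970 and 1.66 (log2 change -1.47, adjusted p = 0.00252). Olfr222 on chromosome 11, 3.74 kb from the inflammasome gene Nlrp3, had 4.19 and 3.61, then 1.19 and 1.45 (log2 change -1.57, adjusted p = 0.00349). Olfr156, Olfr1535, Olfr1367, Olfr329-ps, Olfr287 and Olfr47 fell by 0.98 to 1.67 on the log2 scale. The 6 members with the highest control density were Olfr94, Olfr95, Olfr1535, Olfr1368, Olfr222 and Olfr63, at 3.28 to 10.9 CPM per kb in the controls and 0.658 to 2.20 in Ezh2-deleted cells; they were picked by values that enter the change, so their fall is a description. Olfr63 was uneven without Ezh2 (1.94 and 0.658), and the next member in rank had a control mean of 3.73. Olfr78, a class I receptor known outside the nose in the carotid body and kidney and chosen here after its values were seen, had 1.72 and 1.67, then 1.10 and 1.01 (log2 change -0.68, adjusted p = 0.0166).

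The rises named here had mean control densities of 0.333 to 1.02 CPM per kb, and 8 of the 16 rises lay on chromosome 2. Olfr1118 (chromosome 2, 87308764 to 87309759) had 0.181 and 0.485 CPM per kb in the controls, from 2 and 6 reads, and 1.13 and 1.44 in Ezh2-deleted cells, from 17 and 16 reads (log2 change 1.87, SE 0.55, adjusted p = 0.0143). Olfr1241 had 0.476 and 0.596, then 1.33 and 2.00 (log2 change 1.58, SE 0.48, adjusted p = 0.0157). Olfr1302 had 0.948 and 0.764, then 2.03 and 2.27 (log2 change 1.32, adjusted p = 0.0166). In these 3 each Ezh2-deleted library was above each control. Olfr199, Olfr846, Olfr584, Olfr1336, Olfr1230, Olfr1022, Olfr1166 and Olfr1256 rose by 0.80 to 1.54 on the log2 scale. Of these 11 rises, the calls of Olfr1022, Olfr1166, Olfr1256, Olfr1336, Olfr584 and Olfr1230 ended under TMM scaling, with adjusted p of 0.0568 to 0.102. The 6 members with the lowest control density were Olfr1118, Olfr99, Olfr543, Olfr1186, Olfr299 and Olfr1241, at 0.181 to 0.596 in the controls and 0.790 to 2.00 in Ezh2-deleted cells; they too were picked by values that enter the change. The next member in rank had a control mean of 0.576. Olfr299 was not tested, nor were Olfr777, Olfr1045, Olfr1202 and Olfr1480, for too few reads.

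The level of a receptor in control cells went with its distance from the nearest gene of another kind. In the 32 members under 10 kb from such a gene the median density was 1.49 and 1.76 CPM per kb in the controls, against 1.18 and 1.33 in Ezh2-deleted cells. In the 210 at 10 to 50 kb it was 1.60 and 1.58, against 1.34 and 1.31. In the 394 at 50 to 200 kb it was 1.28 and 1.29, against 1.29 and 1.42. In the 465 beyond 200 kb, deep inside the arrays, it was 1.14 and 1.12, against 1.27 and 1.43. Thus, scaled by library size, controls stood above Ezh2-deleted libraries near other genes and below them inside the arrays. With this scaling the genotypes did not overlap in any class, though at 50 to 200 kb only narrowly (1.286 in control 7 against 1.292 in Ezh2-deleted 10). Nor did they overlap in 73.5% of the genome bins of 1 Mb. TMM moved the median log2 change of all members from 0.11 to -0.13, and class medians under TMM are not given here. Over the 1101 members the Spearman correlation of density with distance was -0.31 and -0.34 in control 33 and 7 and -0.08 and 0.11 in Ezh2-deleted 10 and 9. Calls followed the same order: 9 of 32 members under 10 kb fell (28.1%), and 32 of 210 at 10 to 50 kb (15.2%). Farther out it was 11 of 394 (2.79%) and 2 of 460 tested beyond 200 kb (0.435%). The 16 rises lay at 50 to 200 kb (7) and beyond 200 kb (9). Over all intervals 20.6% fell and 32.2% rose, so only the nearest class, of 32 members, exceeded either share. The classes were set after values were seen. Under TMM the falls per class were 9, 51, 27 and 6, and under DESeq2 6, 20, 7 and 0. The rises went from 7 and 9 in the farther classes to 2 and 3 under TMM and to 0 and 0 under DESeq2. DESeq2 could call only members to which it gave an adjusted p, which leaves out many with few reads. The median distance was 23.0 kb for the 54 that fell, 265 kb for the 16 that rose and 160 kb for the 1026 not called. Base composition moved along with this order and its part was not tested: the median GC content of the start windows was 41.5%, 40.3%, 36.3% and 33.0% from the nearest class to the farthest, and 43.0%, 35.8% and 34.7% for falls, rises and members not called. Over the 921 windows, density correlated with GC content with a Spearman coefficient of 0.17 and 0.21 in the controls and 0.03 and -0.17 in Ezh2-deleted 10 and 9.

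**Figure D3:**
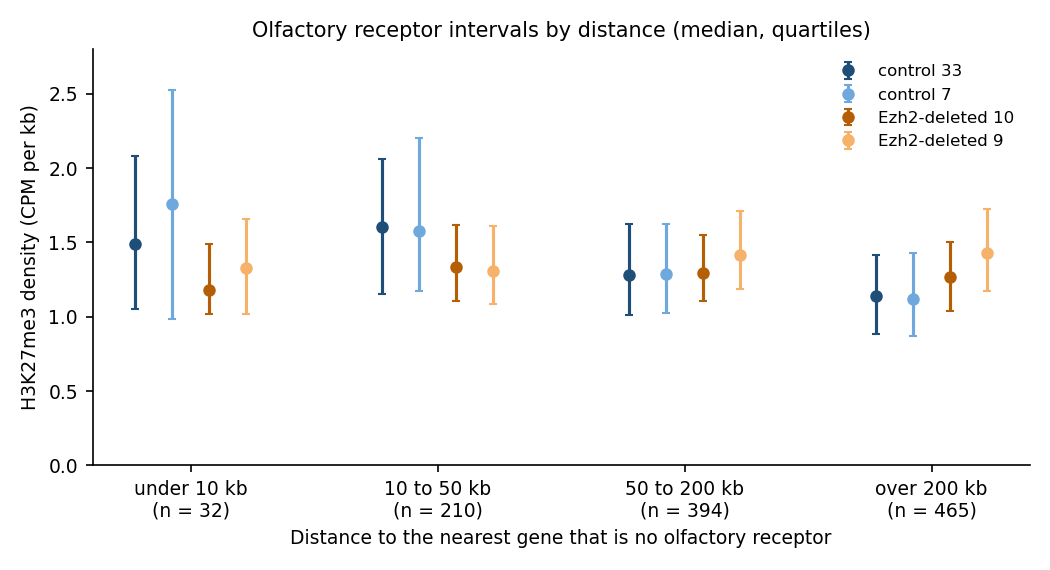
H3K27me3 density (CPM per kb) of olfactory receptor intervals in 4 classes of distance to the nearest gene that is no olfactory receptor. Points are medians over members, bars run from the lower to the upper quartile, and colours are the 4 libraries; control medians fall from 1.49 and 1.76 under 10 kb to 1.14 and 1.12 beyond 200 kb, while Ezh2-deleted medians stay between 1.18 and 1.43.

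Neighbouring receptors resembled each other in control cells. Over 1052 pairs of adjacent members of an array the Spearman correlation of density was 0.30 in both controls and 0.05 and 0.09 in Ezh2-deleted 10 and 9. The 242 members within 50 kb of another gene, which share 125 such genes, followed that gene's own density weakly, with coefficients of 0.20 and 0.10 in the controls and 0.09 and 0.14 in Ezh2-deleted cells.

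Arrays differed in direction. Members less than 1 Mb apart formed 49 clusters on 17 chromosomes, of which 21 held at least 10 members and 1004 in all. Summed over members, 7 of the 21 were lower in both Ezh2-deleted libraries than in both controls, 7 were higher and 7 overlapped. The sums weight members by length. In 1 higher array, 18 receptors of chromosome 11 (48978889 to 49564860), the Olfr56 model gives 156499 bases of 172.9 kb. Member medians there were 1.57 and 1.85 CPM per kb in controls and 1.52 and 1.33 in Ezh2-deleted cells, and 1 member fell and 0 rose. Over 2310 genome bins of 1 Mb the genotypes did not overlap in 73.5% (29.5% lower, 44% higher). The 14 of 21 clusters without overlap do not exceed that total, and the 7 higher ones do not exceed the higher share. The 7 lower ones lie slightly above the lower share. Arrays thus went both ways, as the bins of the genome did. The largest loss was in the 12 receptors on chromosome 13 (21072349 to 21703965), with 3.32 and 2.95 CPM per kb in the controls and 1.27 and 1.58 in Ezh2-deleted cells, where 5 of 12 members fell. Both controls stood far above both Ezh2-deleted libraries. The 23 receptors of chromosome 11 from 58454915 to 59614225, which include Olfr222, had 2.07 and 2.41, then 1.20 and 1.22, and 9 of 23 fell. The 61 receptors of chromosome 19 had 1.71 and 1.58, then 1.25 and 1.37, and 6 of 60 tested fell. The class I receptors, the older, fish-like branch of the family, form a single array on chromosome 7 around the beta globin genes. These 122 had 1.38 and 1.403, then 1.23 and 1.25, a small difference without overlap in the sum, which weights members by length. The median over these 122 members did not fall: it was 1.32 and 1.27 in controls and 1.32 in both Ezh2-deleted libraries, with a median log2 change of 0.09, and 6 fell and 2 rose. The other way stood the largest array, 224 receptors on chromosome 2 (85330897 to 90401674), with 1.04 and 1.01, then 1.15 and 1.38, where 7 of 222 tested rose and 0 fell (edgeR, as above). DESeq2 called no member higher in any array, but could call only members to which it gave an adjusted p. A second chromosome 2 array of 37 receptors had 1.14 and 1.16, then 1.44 and 1.54. The chromosome 7 array of 15 receptors at 86268730 to 86695384 had 0.773 and 0.826, then 0.971 and 1.33. Over all of chromosome 2, 8 of 287 tested members rose and 0 fell, and on chromosome 11 12 of 81 fell and 0 rose. Neither share exceeded that over all intervals (32.2% higher and 20.6% lower).

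**Figure D4:**
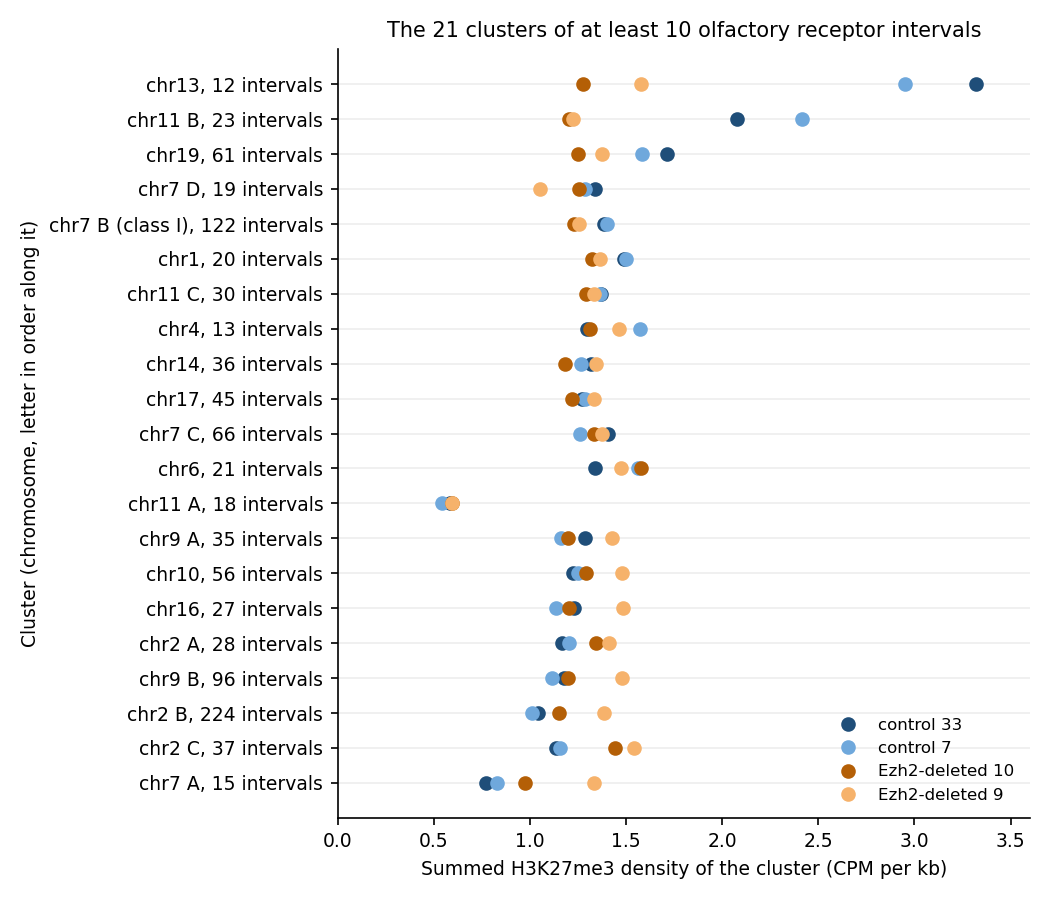
Summed H3K27me3 density (CPM per kb) of the 21 clusters of at least 10 olfactory receptor intervals, ordered by the ratio of Ezh2-deleted to control, 1 point per library. The chromosome 13 cluster and the second chromosome 11 cluster lie at 2.07 to 3.32 in controls and 1.20 to 1.58 in Ezh2-deleted libraries, and the Ezh2-deleted points stand to the right in the lowest clusters.

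Counts pooled over the genome told little more about the arrays. Of 34 bins of 1 Mb rich in receptors (at least 5 members that are at least 50% of the bin's intervals), 4 were called higher and 5 lower, against 22.4% and 17.4% of all bins (39.9% in either direction). Members held a median of 24.8% of the reads in these 34 bins, so most of the signal came from outside them. In the 13 of these bins where members held at least 50% of the reads edgeR made no call (2 at an unadjusted p under 0.05, and log2 changes of -0.23 to 0.45, 12 of them positive).

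Transcripts of the member receptors were close to absent in both genotypes. RNA libraries held 21910114 to 28443427 counted reads, and 1028 of the 1101 members had no read in any of the 12 libraries, where a count of 0 in a library allows up to 0.105 to 0.137 CPM (3 reads). The 73 with a read (6.63%) compare with 50 of 330 vomeronasal receptors (15.2%), and 24.5% of all 23420 genes had no read. A library held reads of 10 to 22 members. Reads were seen in both genotypes for 24 members, in Ezh2-deleted libraries alone for 33 and in control libraries alone for 16, and none of the members seen in a single genotype had more than 4 reads in it over 6 libraries. Of the 54 receptors that lost H3K27me3 in Th0 cells, 3 had a total of 3 RNA reads in Th0 controls and 6 had 14 reads in Ezh2-deleted Th0 cells, and of the 16 that gained none had a read in either culture. The CD4 T cell markers Cd3e, Cd3g, Cd4, Cd2, Thy1 and Lck summed to 3184 to 3798 CPM. Cd2 and Cd4 were called lower in Ezh2-deleted cells of both cultures, and Cd3g and Cd3e higher in iTreg cells (edgeR). The 8 markers of olfactory sensory neurons summed to 27.9 to 60.5 CPM, nearly all from Adcy3 (16.7 to 32.7 CPM) and Gnal (8.19 to 27.6 CPM). The channel subunit Cnga2 and the receptor chaperone Rtp1 had no read, and Omp, Gng13, Stoml3 and Ncam1 had at most 0.371 CPM.

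A few members carried nearly all reads. Olfr613, of the class I array, held 79.8% of the 6196 member reads. It had 8.01 to 11.2 CPM in Th0 controls and 11.0 to 11.3 CPM in Ezh2-deleted Th0 cells, and 19.0, 19.0 and 29.7 CPM in iTreg controls against 18.2, 15.9 and 35.1 CPM in Ezh2-deleted iTreg cells. Per kb of transcript Olfr613 averaged 3.24 CPM over the 12 libraries, above Olfr56 at 0.866, Olfr99 at 0.770, Olfr1372-ps1 at 0.232 and Olfr1033 at 0.119. These were the only 5 members with enough reads to test. The next in reads, Olfr543, Olfr920, Olfr1444, Olfr1383, Olfr212, Olfr90 and Olfr1393, had 11 to 68 reads over the 12 libraries.

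In Th0 cells none of the 5 was called, where 12% of 12845 genes were (8.74% higher, 3.22% lower; edgeR, 0 of 5 at an unadjusted p under 0.05; DESeq2 also called 0). The largest difference was in Olfr1372-ps1, with 0.529, 0.148 and 0.191 CPM in controls and 0.0386, 0 and 0.0703 CPM in Ezh2-deleted cells (log2 change -2.83, adjusted p = 0.219); refitted without the third Ezh2-deleted iTreg library, the one with the lowest Ezh2, its adjusted p was 0.0258 in edgeR. In iTreg cells 3 of the 5 were called higher, against 9.45% of all genes higher and 7.26% lower (16.7% called). A gene enters the test if it has reads in any of the groups, and Olfr1372-ps1 did so through the libraries where it is high, so the count of 3 of 5 is a description and says nothing about the family. Olfr56 had 0.800, 0.408 and 0.604 CPM in controls and 2.40, 2.87 and 1.28 CPM in Ezh2-deleted cells (log2 change 1.85, SE 0.35, adjusted p = 0.00506). The Olfr56 model spans 156499 bases on chromosome 11 (48978889 to 49135387) and overlaps 7 other genes, among them Ifi47, an interferon-induced GTPase, which rose from 278 ± 27.4 to 544 ± 61.7 CPM (n = 3, log2 change 0.97, adjusted p = 0.000388). The kit does not keep strand, so reads of overlapping genes cannot be told apart. Olfr99 had 0.724, 0.489 and 0.846 CPM, then 1.20, 1.24 and 1.92 CPM (log2 change 1.08, SE 0.32, adjusted p = 0.0413). The gene nearest to it that is no olfactory receptor, 5.02 kb away, is the MHC class Ib gene H2-M3, which rose from 31.6 ± 3.29 to 68.9 ± 5.70 CPM (n = 3, log2 change 1.13, adjusted p = 0.000127). The call of Olfr99 ended in edgeR when any iTreg library but 1 control was left out (adjusted p of 0.0514 to 0.161, and 0.0432 without that control).

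Olfr1372-ps1, named as a pseudogene, showed the steepest change and the most uneven one. It had 0.0381, 0.0408 and 0 CPM in iTreg controls, from 1, 1 and 0 reads, and 1.98, 1.80 and 0.0913 CPM in Ezh2-deleted iTreg cells, from 48, 42 and 2 reads. All 3 Ezh2-deleted values were above all 3 controls, though the third only just. The log2 change of 5.38 (SE 1.22, adjusted p = 0.0136) rests on controls at or under the 3-read floor and is no bound; without the second iTreg control its adjusted p was 0.0529. Its interaction, the difference between the iTreg and Th0 changes, was 8.21 (adjusted p = 0.0305), against 4.49% of genes called (1.63% higher, 2.86% lower). The interaction is no bound either, as Ezh2-deleted Th0 cells also held only 1, 0 and 2 reads of this gene. Olfr56 had an interaction of 1.90 (adjusted p = 0.0520). With the 6 iTreg libraries fitted alone none of the 4 members that could be tested was called. The third Ezh2-deleted iTreg library also had the lowest Ezh2 RNA, 48.7 CPM against 123 and 118 CPM. It was also the lowest of the 3 for most housekeeping genes, such as Gapdh (648 against 2905 and 3296 CPM). B2m, Rplp0 and Polr2a were instead highest in it. Among iTreg controls, replicate 177 was lowest for Gapdh (664 against 2464 and 1801 CPM) and for Ezh2 (166 against 251 and 241 CPM). The part of these library differences was not tested. The CD8 T cell markers Cd8a and Cd8b1 moved with genotype as well and summed to 18.0 to 26.7 CPM in iTreg controls and 39.6 to 138 CPM in Ezh2-deleted iTreg cells. Myeloid markers (Lyz2, Csf1r, Cd14, Itgam) summed to 2.63 to 24.8 CPM in iTreg controls and 1.03 to 8.44 CPM in Ezh2-deleted iTreg cells, and to under 1 CPM in each Th0 library. The part of these cell markers in the RNA differences was not tested.

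**Figure D5:**
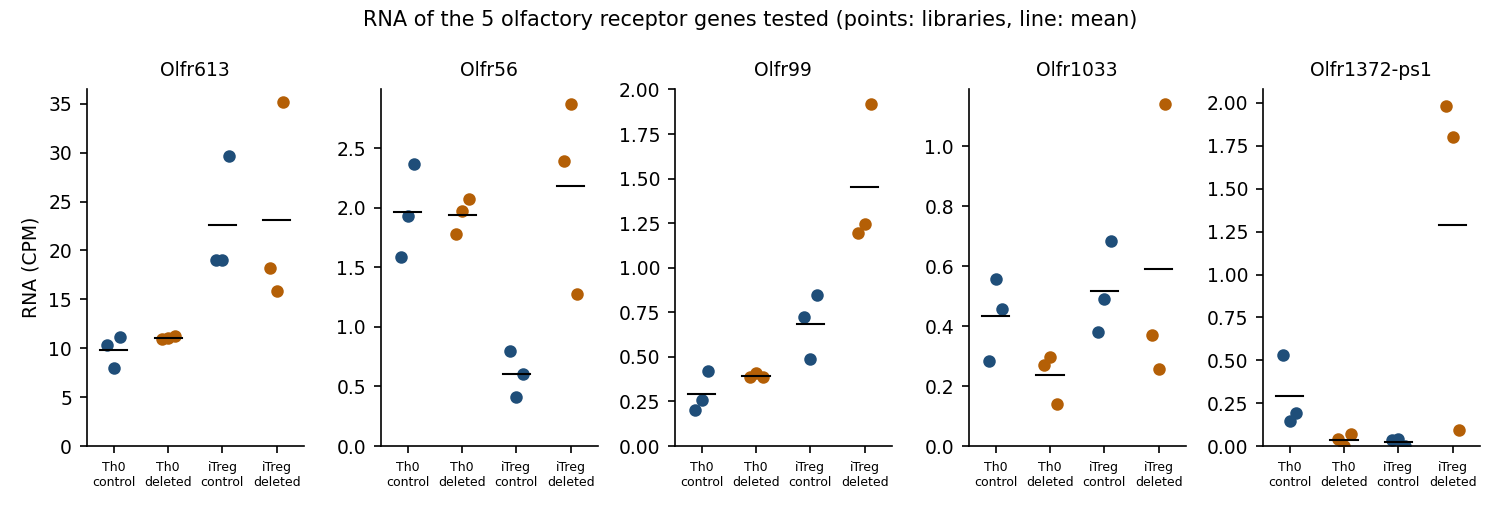
RNA (CPM) of the 5 olfactory receptor genes with enough reads to test, by culture and genotype, 1 point per library with the mean as a line and an axis from 0 per gene. Olfr56, Olfr99 and Olfr1372-ps1 are higher in each Ezh2-deleted iTreg library than in each iTreg control, with Olfr1372-ps1 at 1.98, 1.80 and 0.0913 CPM, and Olfr613 overlaps between genotypes.

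Genes that act with the receptors in the nose were followed in the same fits. Of 33 genes of olfactory signalling and receptor choice, 31 were tested for H3K27me3: 11 fell and 6 rose (median log2 change -0.24 beside 0.21 over all intervals, of which 20.6% fell and 32.2% rose). Among the falls were Lhx2 (log2 change -2.15, adjusted p = 4.39e-05) and Emx2 (-2.22, adjusted p = 0.000198), homeodomain factors of receptor gene transcription, Ebf1, Ebf2, Ebf3 and Ebf4 (-1.27 to -0.54), and Gnal (-0.81, adjusted p = 0.000364), the G protein subunit that receptors signal through. Among the rises were Ldb1 (1.29, adjusted p = 0.00960), the partner of Lhx2, and Kdm1a (0.85, adjusted p = 0.0144), a histone demethylase needed for receptor choice. In Th0 RNA 17 were tested, 6 rose and 1 fell (8.74% and 3.22% of all genes). Lhx2 RNA rose by 2.42 on the log2 scale (adjusted p = 0.0222), Ebf1, also a B cell factor, by 1.36 (adjusted p = 0.0354) and the adenylyl cyclase Adcy3 by 0.45 (adjusted p = 0.0161). In iTreg RNA 1 rose (Adrbk2) and 1 fell (Nqo1), beside 9.45% and 7.26% of all genes. Of 13 enzymes and readers of constitutive heterochromatin, all tested, 0 rose and 1 fell in Th0 RNA (Lbr, the lamin B receptor) and 0 rose and 1 fell in iTreg RNA (Ehmt1). In H3K27me3 11 of the 13 rose, like 10 of 14 housekeeping intervals.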

How the data were processed

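H3K27me3 ChIP-seq (4 libraries) and RNA-seq (12 libraries) were used. Per the submitters' processing notes, the authors used Trimmomatic 0.30 and TopHat2 2.0.6 for RNA, Bowtie2 2.1.0 for ChIP, mm10, and featureCounts 1.4.2 for both. The deposited values are raw read counts per gene or gene interval; the ChIP intervals are whole gene bodies, and the counting command sets no option for strand, multi-mapping reads or reads in more than 1 interval, per the file headers. Counts were fitted with edgeR 4.0.16 (R 4.3.3): robust quasi-likelihood tests, two-sided, filterByExpr with a minimum count of 10, Benjamini-Hochberg over all features. ChIP was scaled by library size alone, since TMM would centre the bulk of intervals. Library-size scaling in turn sets every library to the same total. Densities, falls and rises are therefore relative, and a broad shift of the mark was not measured. RNA used TMM with 12 libraries in 1 fit of 4 groups. DESeq2 1.42.0 was an alternative. Fits were tested on simulated data. Density is CPM per kb of interval. Sequences came from RefSeq (GRCm38.p6, the coordinates of mm10). Named members were up to 10 smallest p per direction, the 6 highest and 6 lowest control densities (at least 900 bases, no overlap), the 5 largest losses and gains with at least 20 reads, and for RNA the members tested and the 12 with most reads. The members and lists were chosen with earlier results of these data known, and the distance classes after seeing values. Replicates are the submitters' biological replicates. The 21 Olfr names in the RNA counts that are no members were left out. Among them Olfr856-ps1 had 4064 reads over the 12 libraries, Olfr1396 had 10, and the others had none. The results of 2 further marker lists are not reported here.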

Additional observations from a re-analysis of the deposited data

Results flagged for a closer look

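Olfr1372-ps1 differed in its genotype contrast between cultures by a test of the difference itself: the log2 change in iTreg minus that in Th0 was 8.21 (edgeR adjusted p = 0.0305). Its RNA was lower in all 3 Ezh2-deleted Th0 libraries (0 to 0.0703 CPM against 0.148 to 0.529 CPM) and higher in all 3 Ezh2-deleted iTreg libraries (0.0913 to 1.98 CPM against 0 to 0.0408 CPM), with 0 to 48 reads per library. The lower group of each culture lay under the 3-read floor: 1, 0 and 2 reads in Ezh2-deleted Th0 cells and 1, 1 and 0 in iTreg controls. The value of 8.21 is therefore no bound. The gene entered the test through the libraries where it is high, so the result is a description. With the 6 iTreg libraries fitted alone, no member tested was called.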

How the results depend on the processing

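No paired analysis was possible because the genotypes compared share no replicate numbers in H3K27me3 or in either culture; between cultures each genotype shares 1 number, fewer than a block needs. For H3K27me3, 70 members were called (54 lower, 16 higher). TMM gave 93 lower and 5 higher, and a minimum count of 20 gave 8 higher of 368 tested. DESeq2 gave 33 in all, 33 lower and 0 higher, which is 7.24% of the members with an adjusted p. Leaving out 1 library gave 0 to 87 calls, 0 to 58 lower and 0 to 29 higher; 0 came without either Ezh2-deleted library, when no interval of the genome was called, and 29 higher without control 33 or without control 7. The cause was not tested. The median log2 change of 0.11 was -0.13 with TMM, -0.0904 with DESeq2, -0.0756 with a minimum count of 20, and 0.0226 to 0.14 leaving out 1 library. The summed ratio of 0.981 was 0.835 with TMM, 0.859 with DESeq2, and 0.933 to 1.03 leaving out 1 library. Of 34 rich bins 9 were called (5 lower, 4 higher); DESeq2 gave 9 lower, bins of 0.5 Mb 9 lower of 63, and leaving out 1 library 0 to 11 in all, 0 to 8 higher and 0 to 4 lower. In iTreg RNA 3 members were called, 0 with the 6 iTreg libraries alone, and 1 to 3 leaving out 1 library. In Th0 RNA 0 were called, and 1, lower, without the third Ezh2-deleted iTreg library, an alternative added after seeing the data. Uncalled RNA changes turned sign when 1 library was left out: Olfr56 in Th0 (-0.181 to 0.10), Olfr1033 in iTreg (-0.70 to 0.533) and Olfr613 in iTreg (-0.40 to 0.276). Depth, at a median of 15 to 21 reads per member, limits single receptors.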
